A study of Mus musculus with 2 samples.

Results

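The 40 genes described here encode enzymes that remove superoxide and peroxides, and the glutathione and thioredoxin systems that supply peroxidases with electrons. The set also holds the glutathione S-transferases, the metallothioneins, and the regulators NRF2 (Nfe2l2) and KEAP1 (Keap1). The genes were given as a list of symbols, and the reads of all transcripts of each gene in GENCODE mouse release M21 were summed. All 40 had at least 1 read, of 15523 annotated genes with a read, and 37 had at least 20 reads over both libraries. Gpx7, Gsta3 and Nqo1 fell under that number.

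The tissue was interscapular brown adipose tissue, a fat depot that burns fuel to make heat, from male wild type C57BL/6N mice aged 20 weeks. Poly(A)+ RNA was read as native molecules from the 3' end on a nanopore, with 1 library per group. RNA of 3 mice housed singly at 4 °C for 24 h was pooled for the cold one. Mice were otherwise kept at 22 to 24 °C. The pool size and caging of the control mice were not given in the sources used here, and the treatment text is the same for both samples, so the groups rest on the treatment field alone. Depth was 1698124 control and 1215617 cold reads. Animals could not be compared within a group, so no test of the cold against the control was possible, and no p-value is given. Parentheses hold 95% intervals for counting error, so they concern these 2 libraries rather than the conditions. Levels are reads per 1000000 of the scaled library (RPM), and a read is 1 molecule, so they are not divided by length. In a tissue extract, fewer cells of a type and less RNA per cell cannot be told apart.

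Mitochondria release superoxide, which superoxide dismutases turn into hydrogen peroxide. Catalase splits hydrogen peroxide without these carriers of electrons: glutathione and thioredoxin. The glutathione peroxidases and the peroxiredoxins reduce peroxides to water or alcohols, mostly using glutathione or thioredoxin. Glutathione reductase and thioredoxin reductases restore these carriers with NADPH. NRF2 is a transcription factor that KEAP1 marks for degradation until KEAP1 is modified by electrophiles, and it drives many genes of this defence. Brown fat is rich in mitochondria, and reactive oxygen species have been studied there in connection with heat production.

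The set differed in both directions between the libraries, mostly by less than 2-fold. Of the 37 genes with at least 20 summed reads, 8 had a ratio of cold to control whose interval lay above 1, against 11.3% of all 7529 genes with that many reads. For 14 the interval lay below 1, against 11.3% of all genes, and for 15 it included 1. Reads per gene decide how narrow an interval is, and these genes are well covered. Among the 29 members with at least 100 reads, 6 lay above 1, against 19.2% of all 2677 such genes, and 13 lay below it, against 20.1%. At this cut-off the share above 1 (20.7% of members) was near that of all genes, and the share below 1 (44.8%) was larger. This cut-off does not fully match depth. With at least 500 reads, 60.2% of all genes up to 750 bases lay below 1, and 31.1% of those over 2000 and up to 3000 bases. Of members with that many reads, Sod1, Gpx1, Gpx3, Gpx4, Prdx2 and Mgst1 lay below 1. Sod2, Sod3, Cat, Prdx6 and Txn2 lay above it. Each class share of all genes below 1 at that depth exceeded 20.1%. The larger share of members below 1 is therefore not read as a result about the members. Whether the larger share below 1 remains at equal depth was not tested.

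The median log2 ratio was -0.27 over the 37 members and 0.00 over all genes tested. At least 2-fold higher, with an interval that excluded 1, was 1 member, Txnrd1, against 4.20% of all genes (3.47% of those with at least 100 reads). At least 2-fold lower was 1 member, Mgst3, against 4.08% (2.35%). Together the 40 genes took 0.964% of the control reads (0.950 to 0.979) and 0.925% of the cold reads (0.908 to 0.942).

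These values are relative to the trimmed-mean (TMM) scaling of library sizes. With total counts the median of all genes shifted upwards by 0.18 on the log2 scale, and by 0.13 when mitochondrially encoded genes were left out of those totals; with DESeq2 size factors it was -0.03. Of the 22 members called, 16 kept their side under all 4 scalings, 6 above 1 (Sod3, Cat, Prdx6, Txn2, Txnrd1 and Gss) and 10 below (Sod1, Gpx1, Gpx3, Gpx4, Prdx2, Txn1, Gstm1, Gstp1, Mgst1 and Mgst3). Members above 1 made up 36.4% of the members called, against 49.8% of all genes called. These shares were 54.5% (12 above, 10 below) against 74.5% with total counts, and 52.4% (11 and 10) against 67.7% without mitochondrially encoded genes in the total. With DESeq2 size factors they were 26.1% (6 and 17) against 45.3%.

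**Figure D1:**
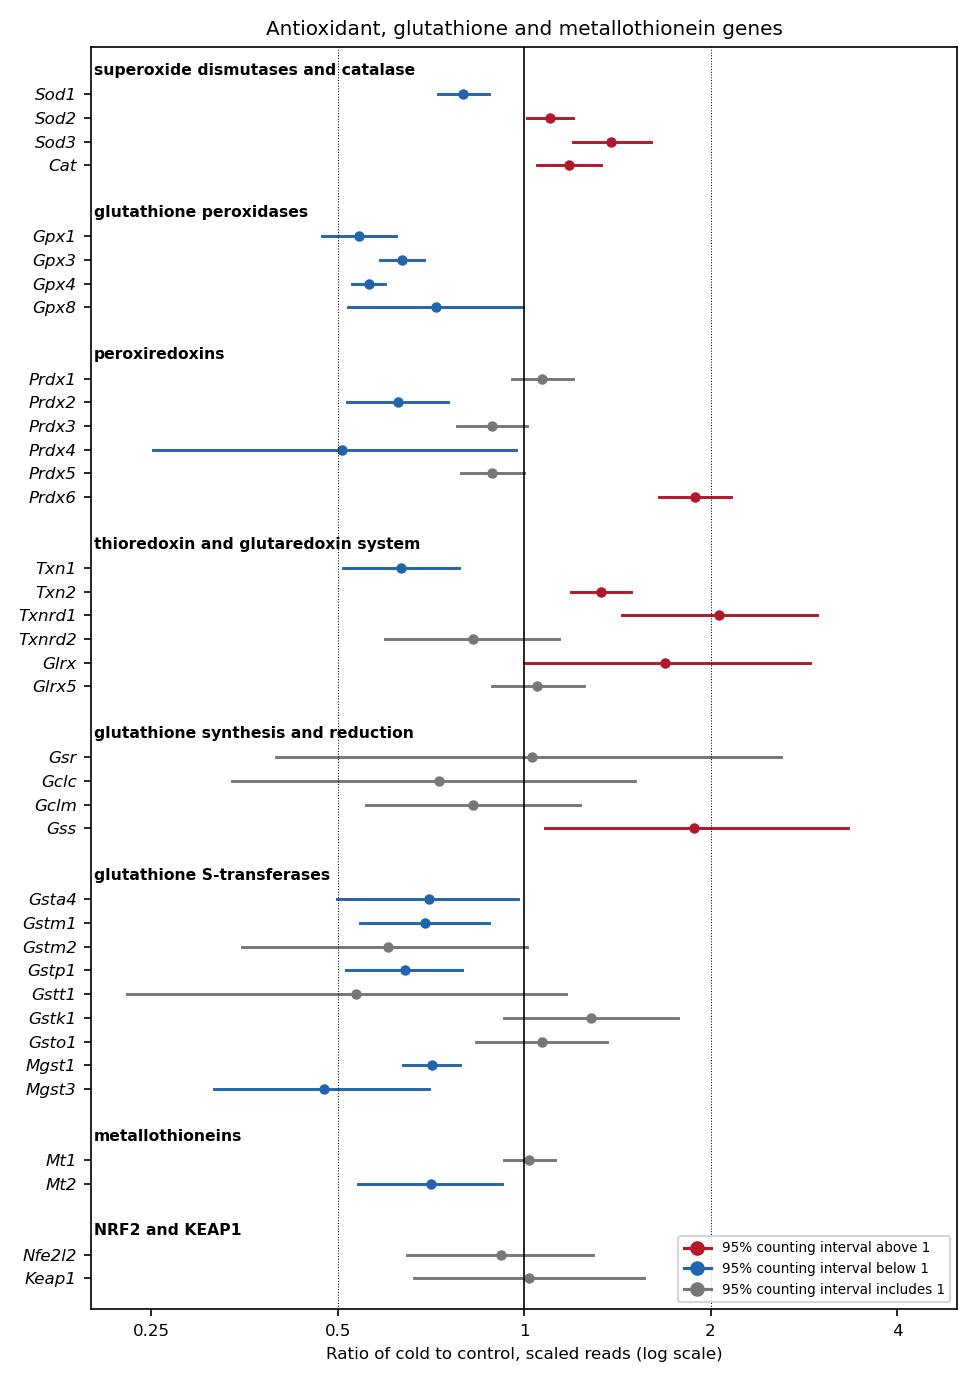
Ratio of cold to control for the 37 members with at least 20 summed reads, grouped by role, on a log axis; points are ratios of scaled reads and lines are 95% counting intervals, with 1 library per group. The 4 glutathione peroxidases shown lie below 1, while the other groups with more than 1 gene called hold genes on both sides or, for the glutathione S-transferases, 5 genes below 1 and 4 whose interval includes 1.

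The superoxide dismutases did not all differ in the same direction. Sod1, the cytosolic copper and zinc enzyme, had 1125 control and 728 cold reads, or 705 (665 to 748) and 563 (523 to 605) RPM, a ratio 1.25-fold lower (1.14 to 1.38). Sod2, the manganese enzyme of the mitochondrial matrix, had 1229 and 1097 reads and was 1.10-fold higher (1.01 to 1.20), which with DESeq2 size factors was 1.08-fold with an interval that included 1. Sod3, the secreted enzyme bound to the cell surface and matrix, had 363 and 407 reads and was 1.38-fold higher (1.20 to 1.60). The cytosolic form was thus the lower one and the mitochondrial and secreted forms the higher ones in the cold library, with 1 gene for each compartment. Cat, the peroxisomal catalase that splits hydrogen peroxide, had 596 and 570 reads and was 1.18-fold higher (1.05 to 1.33). Summed over these 4 genes, the ratio was 1.04 (0.991 to 1.10).

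The glutathione peroxidases differed most of the role groups in summed reads. Gpx1, Gpx3 and Gpx4 use glutathione to reduce peroxides. The 4 of the group with at least 20 reads were all lower in the cold library, with a median log2 ratio of -0.74. Gpx4, which reduces lipid peroxides within membranes (chromosome 10, 80047166 to 80056439), had 3205 control and 1457 cold reads, or 2009 and 1126 RPM, and was 1.78-fold lower (1.68 to 1.90). Gpx1, the abundant enzyme of cytosol and mitochondria (chromosome 9, 108338903 to 108340343), had 684 and 300 reads, or 429 and 232 RPM, and was 1.85-fold lower (1.61 to 2.12). Gpx3, secreted into plasma (chromosome 11, 54902453 to 54910377), had 1760 and 906 reads and was 1.58-fold lower (1.45 to 1.71). All 3 intervals stayed below 1 under each of the 4 scalings. Gpx8, in the endoplasmic reticulum, had 106 and 62 reads and was 1.39-fold lower (1.00 to 1.93), and its interval included 1 with total counts. Gpx7, of the same compartment, had 8 and 9 reads (ratio 1.39, 0.475 to 4.13), too few to tell a 2-fold difference from an equal level. Summed reads of the 5 genes were 0.339% of the control library (0.331 to 0.348) and 0.225% of the cold library (0.217 to 0.233), 1.71-fold lower (1.63 to 1.79), and 1.62-fold lower (1.52 to 1.74) without Gpx4.

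Gpx1, Gpx3 and Gpx4 are selenoproteins, as are the thioredoxin reductases Txnrd1 and Txnrd2: each contains selenocysteine, encoded by a UGA codon that otherwise ends translation. These codons are shown because they mark the residue that the members share. The coding bases around each, from the GENCODE M21 transcripts on GRCm38 and written as DNA, are given 5′ to 3′ with the selenocysteine codon in capitals.
Gpx1: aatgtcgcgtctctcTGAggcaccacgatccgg
Gpx3: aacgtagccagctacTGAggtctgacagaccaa
Gpx4: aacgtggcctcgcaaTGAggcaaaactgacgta
Txnrd1: ctccagtctggctgcTGAggt
Txnrd2: actgtgactggttgcTGAggc
The codon is number 47 of 201 in Gpx1, 73 of 226 in Gpx3 and 73 of 197 in Gpx4. In the reductases it is the last but one, 498 of 499 in Txnrd1 and 526 of 527 in Txnrd2. The selenoproteins did not differ in 1 direction. The 3 peroxidases were lower in the cold library, Txnrd1 was higher, and the interval of Txnrd2 included 1.

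Among the peroxiredoxins, which reduce peroxides with a reactive cysteine, the direction varied from gene to gene. Prdx6, which uses glutathione and also acts on phospholipids (chromosome 1, 161240112 to 161251219), had 365 control and 559 cold reads, or 229 (206 to 253) and 432 (397 to 469) RPM, and was 1.89-fold higher (1.65 to 2.16). Prdx2, a cytosolic form abundant in red blood cells, had 339 and 172 reads and was 1.60-fold lower (1.33 to 1.93). Prdx4, the form of the endoplasmic reticulum, had 34 and 14 reads and was 1.97-fold lower (1.03 to 3.97), with an interval that included 1 under total counts. The other 3 had intervals that included 1. These were the cytosolic Prdx1 with 664 and 577 reads, a ratio of 1.07 (0.957 to 1.20), the mitochondrial Prdx3 with 562 and 404 reads, 1.13-fold lower (0.991 to 1.29), and Prdx5, found in mitochondria, peroxisomes and cytosol, with 677 and 488 reads, 1.13-fold lower (1.000 to 1.27). Their intervals moved with the scaling: Prdx1 lay above 1 with total counts, and Prdx3 and Prdx5 lay below 1 with DESeq2 size factors. Because higher and lower genes offset each other, the summed ratio of the 6 was 1.03 (0.977 to 1.09).

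In the thioredoxin system the cytosolic and mitochondrial carriers differed in opposite directions. Txn1, the cytosolic thioredoxin, had 257 control and 132 cold reads and was 1.58-fold lower (1.28 to 1.96). Txn2, its mitochondrial counterpart, had 617 and 665 reads and was 1.33-fold higher (1.19 to 1.49). The reductases showed the reverse order of compartments. Txnrd1, which reduces thioredoxin in the cytosol (chromosome 10, 82833951 to 82897712), had 51 and 85 reads, or 32.0 (23.8 to 42.0) and 65.7 (52.5 to 81.2) RPM, and was 2.06-fold higher (1.44 to 2.97). Its reads were spread over 3 coding transcripts with 16 to 19 control reads and 25 to 29 cold reads each, and from the most abundant one alone the log2 ratio was 0.90 in place of 1.03, below 2-fold. Txnrd2, the mitochondrial reductase, had 100 and 67 reads and was 1.21-fold lower (0.879 to 1.67).

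The glutaredoxins use glutathione to reduce protein disulfides. Glrx had 27 and 37 reads and was 1.69-fold higher (1.00 to 2.89), a bound that excluded 1 only beyond the digits given and included it with DESeq2 size factors. Glrx5, which serves iron-sulfur cluster assembly in mitochondria, had 289 and 247 reads, a ratio of 1.05 (0.886 to 1.25). The 5 members of the mitochondrial matrix (Sod2, Prdx3, Txn2, Txnrd2 and Glrx5) together were 1.09-fold higher (1.04 to 1.15), with a median log2 ratio of 0.08. Of these 5, the intervals of Sod2 and Txn2 lay above 1, and those of the other 3 included it. The 5 that are secreted or lie in the endoplasmic reticulum (Sod3, Gpx3, Gpx7, Gpx8 and Prdx4) were together 1.32-fold lower (1.23 to 1.41), a direction set by Gpx3, which held 1760 of their 2271 control reads. Without Gpx3 the other 4 were together 1.19-fold higher (1.05 to 1.35), most of their reads being those of Sod3.

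**Figure D2:**
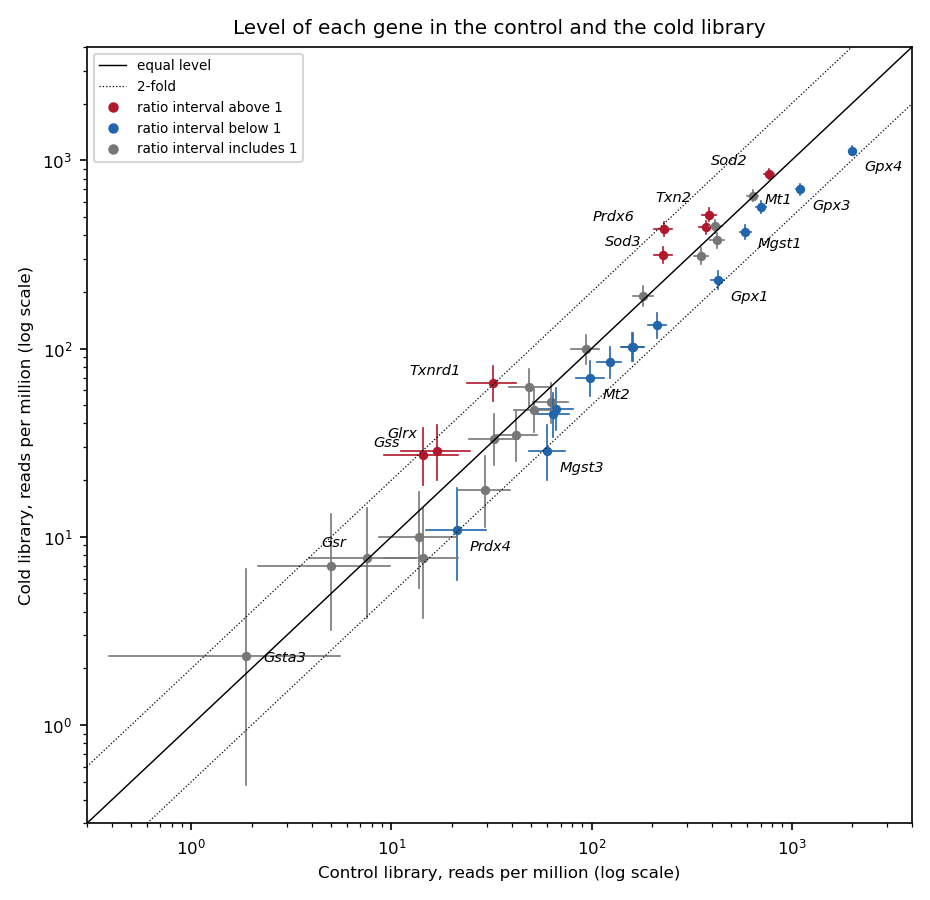
Level of each member in the control library (x axis) and the cold library (y axis), in RPM on log axes, with exact Poisson 95% intervals of the reads; Nqo1, with 0 reads in the cold library, is not drawn. Gpx4 goes from 2009 to 1126 and Gpx1 from 429 to 232 RPM, below the line of equal level, while Prdx6 goes from 229 to 432 and Txnrd1 from 32.0 to 65.7, above it.

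Transcripts for making and recycling glutathione were few. Gss, glutathione synthetase, which adds the last amino acid (chromosome 2, 155563181 to 155592810), had 23 control and 35 cold reads and was 1.88-fold higher (1.08 to 3.33). Exons of Gss overlap 395 bases of exons of Acss2 on the opposite strand, which had 527 and 113 reads, and the strand setting of the counting is not given. The same holds for Prdx5 with Trmt112 (409 bases; 23 and 21), Gclm with Gm17494 (296 bases; 51 and 25) and Prdx2 with Junb (173 bases; 17 and 21). Gclc and Gclm, the catalytic and modifier subunits of the rate-limiting ligase, had 22 and 13 reads (ratio 0.729, 0.337 to 1.51) and 67 and 45 reads (0.828, 0.555 to 1.23). Gsr, glutathione reductase, had 12 and 10 reads (1.03, 0.398 to 2.60). Gclc and Gsr had too few reads to tell a 2-fold lower level from an equal one, while the interval of Gclm included 1 and excluded a 2-fold difference in either direction. The NRF2 target Nqo1, a quinone reductase, had 2 and 0 reads, both under the floor of 3 reads, so no fold is given.

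Glutathione S-transferases join glutathione to electrophiles, and their reads were on balance lower in the cold library. Of the 9 with at least 20 reads, 5 had an interval below 1 and none above it, and the median log2 ratio was -0.53. Mgst3, a membrane-bound form (chromosome 1, 167371966 to 167393841), had 96 control and 37 cold reads, or 60.2 (48.7 to 73.5) and 28.6 (20.1 to 39.4) RPM, and was 2.10-fold lower (1.43 to 3.16). It was under 2-fold lower, with a ratio of 0.538 (0.358 to 0.794), with total counts. Mgst1, another membrane-bound form, had 937 and 539 reads and was 1.41-fold lower (1.27 to 1.57). Among the soluble forms, Gstp1 had 254 and 132 reads and was 1.56-fold lower (1.26 to 1.94), Gstm1 had 196 and 110 and was 1.44-fold lower (1.14 to 1.84), and Gsta4, which acts on the lipid aldehyde 4-hydroxynonenal, had 102 and 58 and was 1.43-fold lower (1.02 to 2.00). Gsta4 alone of these 5 included 1 with total counts.

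The other 4 transferases with at least 20 reads had intervals that included 1. Gstm2 had 47 and 23 reads (ratio 0.603, 0.350 to 1.01) and Gstt1 23 and 10 reads (0.536, 0.228 to 1.17). Gstk1, found in mitochondria and peroxisomes, had 78 and 81 reads (1.28, 0.927 to 1.77) and Gsto1, of the omega class, 149 and 129 (1.07, 0.837 to 1.36). Gsta3 had 3 reads in each library. The summed reads of the 10 transferases were 1.36-fold lower (1.26 to 1.47). Gstp1 shares 67.5% of its 31-base words with Gstp2, which had 26 and 9 reads, and Gpx4 shares 73.6% with the pseudogene Gpx4-ps2, which had 233 and 76 reads. How the reads split within each pair is therefore uncertain. Adding the copy moved the log2 ratio of Gstp1 from -0.64 to -0.68 and that of Gpx4 from -0.83 to -0.86.

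Metallothioneins are small proteins that bind zinc and copper through cysteines, and stress hormones and metals raise their transcripts. Mt1 (chromosome 8, 94179082 to 94180327) had 1018 control and 840 cold reads, or 638 (599 to 678) and 649 (606 to 695) RPM, a ratio of 1.02 (0.928 to 1.12). Its interval lay above 1 with total counts, at 1.15 (1.05 to 1.26). Mt2 (chromosome 8, 94172664 to 94173568) had 157 and 90 reads and was 1.41-fold lower (1.08 to 1.85), with an interval that included 1 under total counts, at 0.801 (0.611 to 1.04). The genes lie 5513 bases apart. Their coding sequences are shown, 5′ to 3′ without the stop codon and with cysteine codons in capitals, because the cysteines carry the metal and the similarity bears on how reads are told apart.
Mt1: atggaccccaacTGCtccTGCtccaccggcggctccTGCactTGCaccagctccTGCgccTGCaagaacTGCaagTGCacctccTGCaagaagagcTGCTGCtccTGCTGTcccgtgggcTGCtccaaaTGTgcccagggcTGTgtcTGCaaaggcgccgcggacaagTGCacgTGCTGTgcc
Mt2: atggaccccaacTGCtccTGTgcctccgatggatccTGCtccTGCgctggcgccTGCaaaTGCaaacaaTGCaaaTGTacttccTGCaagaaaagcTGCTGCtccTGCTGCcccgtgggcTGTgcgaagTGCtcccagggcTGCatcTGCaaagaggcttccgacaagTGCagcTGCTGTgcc
Each has 61 codons, of which 20 encode cysteine at the same positions in both, and 79.2% of the 183 bases are equal. Neither gene shared 5% or more of the 31-base words of its most abundant transcript with another gene.

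Transcription of metallothionein genes is driven by the factor MTF1 at metal response elements. The core TGCACNC or TGCGCNC, on either strand, was found 3 times in the 300-base promoter window of Mt1 and 4 times in that of Mt2, where RefSeq (GRCm38.p6) gives 250 bases before and 50 after the annotated start. At least 1 match was in 25.7% of all 32851 such windows, and at least 3 were in 1.97%. Of the 43 windows of members, 12 (27.9%) held a match, those of 10 genes, and Gclm also had 3 matches. The 250 bases before the start are printed with matches in capitals; the remaining 2 matches of Mt1 and 1 of Mt2 reach into the last 50 bases.
Mt1, chr8:94178839-94179088, plus strand: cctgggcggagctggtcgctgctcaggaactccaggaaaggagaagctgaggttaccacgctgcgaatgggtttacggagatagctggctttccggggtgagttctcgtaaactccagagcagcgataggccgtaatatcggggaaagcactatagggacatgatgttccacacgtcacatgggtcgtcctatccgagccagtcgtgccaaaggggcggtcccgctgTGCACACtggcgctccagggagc
Mt2, chr8:94172368-94172617, plus strand: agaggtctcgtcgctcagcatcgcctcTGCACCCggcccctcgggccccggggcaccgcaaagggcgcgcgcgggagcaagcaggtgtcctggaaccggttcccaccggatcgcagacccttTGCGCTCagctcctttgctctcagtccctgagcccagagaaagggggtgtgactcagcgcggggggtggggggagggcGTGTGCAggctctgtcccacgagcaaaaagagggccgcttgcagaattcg
A match describes letters and is not evidence of binding.

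Of the regulators, Nfe2l2 had 82 control and 61 cold reads, 1.09-fold lower (0.773 to 1.54), and Keap1 had 52 and 43, a ratio of 1.02 (0.665 to 1.56). NRF2 binds antioxidant response elements. The core TGACNNNGC, on either strand, was present in 12.4% of all promoter windows. RefSeq gave 43 windows for 35 members, and 8 windows (18.6%), each of another gene, held the core: Gclm, Gsta3, Mgst1, Mt2, Nfe2l2, Prdx1, Sod1 and Txnrd1. Of these 8, Txnrd1 had an interval above 1, Mgst1, Mt2 and Sod1 below 1, Gclm, Nfe2l2 and Prdx1 including 1, and Gsta3 too few reads. Txnrd1, the member at least 2-fold higher, has 3 windows, of which 1 holds the core. For that window the 250 bases before the start are printed, with the match, on the minus strand, in capitals.
Txnrd1, chr10:82858956-82859205, plus strand: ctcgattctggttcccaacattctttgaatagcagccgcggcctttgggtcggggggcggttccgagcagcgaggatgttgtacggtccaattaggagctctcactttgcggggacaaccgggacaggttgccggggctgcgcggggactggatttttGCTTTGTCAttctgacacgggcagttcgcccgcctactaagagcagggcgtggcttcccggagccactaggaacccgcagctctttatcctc

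Transcript shares within a gene differed little. Of the 20 members with at least 100 reads in each library, 17 had more than 1 listed transcript, and the transcript with the largest difference had an interval that excluded 0 in 3. Prdx6-208, annotated for nonsense-mediated decay, took 11.0% (7.95 to 14.6) of control and 6.26% (4.40 to 8.60) of cold reads of Prdx6, a difference of -4.70 percentage points (-8.71 to -1.05). Gpx4-202, a coding transcript, took 86.1% (84.9 to 87.3) and 89.7% (88.0 to 91.2), a difference of 3.59 points (1.56 to 5.50). Mgst1-201, also coding, reached 97.2% of the cold reads of Mgst1, a difference of 2.23 points (0.0918 to 4.16). Differences of 3.82 points in Prdx5-201, 3.60 in Gsto1-201 and 3.00 in Gstm1-201, and smaller ones in Mt1 and Txn2, had intervals that included 0. In both libraries most reads of Prdx5 were assigned to Prdx5-202, annotated with a retained intron (87.4% and 84.6%), and most of Gsto1 to Gsto1-206, annotated for nonsense-mediated decay (61.7% and 59.7%). The reads of Mt1 were split almost evenly over 3 transcripts, with 346, 345 and 327 reads in the control. How the counting placed reads that match several transcripts is not given in the sources used here.

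Short and long transcripts of the set differed in their ratios. Of the 20 members with a mean transcript length, weighted by reads, of up to 1500 bases, 2 had an interval above 1 and 12 below, with a median log2 ratio of -0.50. The 17 longer members had 6 above and 2 below, with a median of 0.05. Length moved with the ratio over all genes too, but by less: the median was -0.11 for 1411 genes up to 1500 bases and 0.03 for 6104 longer ones, with 21.9% and 8.90% of intervals below 1. With at least 100 reads, intervals below 1 were 11 of 16 short members (68.8%), against 31.5% of 793 short genes, and intervals above 1 were 5 of 13 long members (38.5%), against 21.9% of 1879 long genes. Spearman's rho of length and log2 ratio was 0.58 over the 37 members and 0.07 over 7515 genes, and 0.57 over 29 members and 0.18 over 2672 genes with at least 100 reads. Genes share the libraries, and this is a description. Gpx4 (958 bases), Gpx1 (1071) and Mgst3 (1097) were among the short members, and Prdx6 (2282) and Txnrd1 (3472) among the long ones. The part of transcript length in these differences was not tested.

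**Figure D3:**
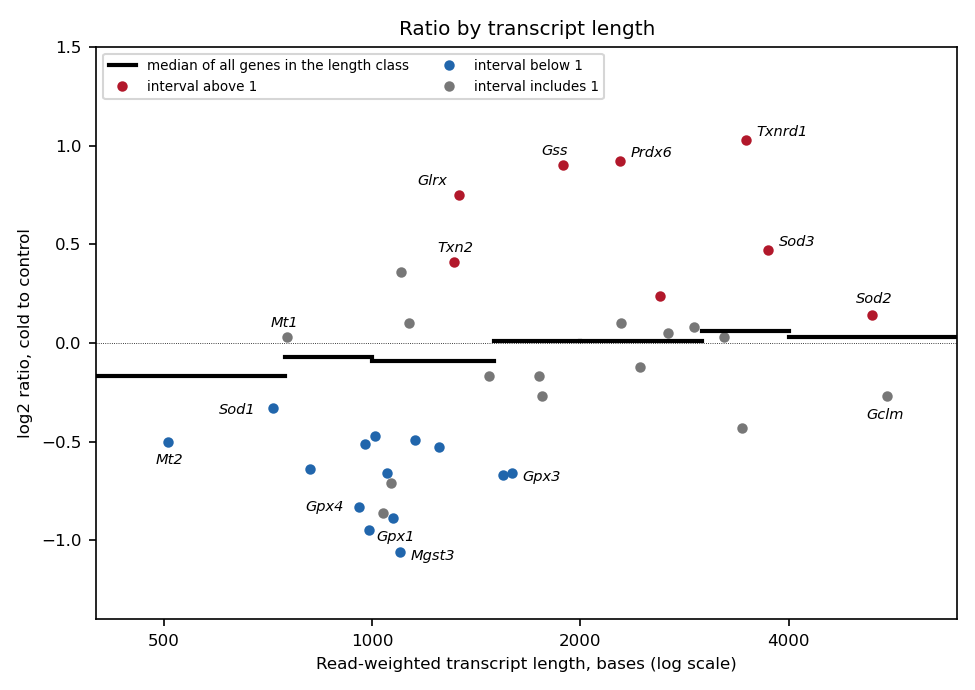
The log2 ratio of cold to control (y axis) against read-weighted transcript length in bases (x axis, log scale) for the 37 members; black bars are medians of all genes in a length class with at least 20 summed reads, the first class reaching down to all shorter lengths and the last up to all longer ones. Gpx4, Gpx1 and Mgst3 lie well below the bar of their class, and Prdx6 and Txnrd1 lie above theirs.

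Markers of cell types were compared because several members are also made outside brown adipocytes. Brown adipocyte markers took 1.27% of control and 1.75% of cold reads, with 14860 and 14526 reads for Ucp1, the uncoupling protein that defines these cells. Of these 8 markers, 5 had an interval above 1 and 1 below, and Adipoq, the hormone adiponectin of all fat cells, had 921 control and 490 cold reads. The sum of 10 skeletal muscle markers was 4.61-fold higher (4.16 to 5.11) in the cold library, with 10 of 10 intervals above 1, at 0.0279% and 0.145% of reads. Erythrocyte markers, mainly globins, were 1.14-fold lower (1.09 to 1.20), at 0.228% and 0.226% of reads, with 3 of 4 intervals below 1. Macrophage markers had 100 control and 123 cold reads and were 1.52-fold higher (1.16 to 2.00). Of these 8 markers, 3 had at least 20 reads, with 2 intervals above 1 and 1 that included it. Among those with fewer reads, Cd68, Adgre1, Cd14 and Mrc1 were lower in the cold library and Csf1r was higher. Endothelial markers were 1.15-fold higher (1.00 to 1.32) and fibroblast markers had a ratio of 0.969 (0.831 to 1.13). All 5 hepatocyte markers were at 0 in both libraries. The part of muscle, blood or immune cells in the differences of the members was not tested.

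Other genes of the pathway were taken from 5 lists with 105 genes, of which 73 had at least 20 reads. Their intervals lay above 1 for 11 (15.1%) and below 1 for 15 (20.5%), and the median log2 ratio was -0.07. Of all genes with at least 20 reads, 11.3% lay on each side. With at least 100 reads, 19.2% of all genes lay above 1 and 20.1% below it. The listed genes were not matched to all genes by depth. By list, the intervals of the listed genes were 2 above and 1 below of 15 for NRF2 targets and partners. The counts were 2 and 4 of 14 for other glutathione genes, and 2 and 2 of 20 for other thioredoxin, methionine sulfoxide and selenoprotein genes. They were 2 and 7 of 13 for genes linked to NADPH supply, and 3 and 1 of 11 for zinc and copper handling.

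Srxn1, sulfiredoxin, which repairs over-oxidised peroxiredoxins, had the highest ratio of those with at least 50 reads: 57 control and 124 cold reads, 2.68-fold higher (1.95 to 3.74). Slc31a1, a copper importer, had 28 and 53 reads and was 2.33-fold higher (1.45 to 3.83). Ftl1, the ferritin light chain, had 1440 and 2295 reads and was 1.97-fold higher (1.84 to 2.10). The heavy chain Fth1, on the same list but not among the extremes, went the other way. It had 4044 and 2158 reads and was 1.52-fold lower (1.44 to 1.60). Aldh1l1, a folate enzyme that yields NADPH, Txndc12, a thioredoxin-like protein of the endoplasmic reticulum, and Oplah, which recycles the glutathione breakdown product 5-oxoproline, were 1.56-fold, 1.52-fold and 1.45-fold higher. Hmox1, haem oxygenase and a common NRF2 target, singled out after its values were seen, had 9 reads in each library.

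The list of genes linked to NADPH supply held 3 of the 6 lowest ratios. Tkt, the transketolase of the pentose phosphate pathway, had 5977 control and 1523 cold reads and was 3.18-fold lower (3.01 to 3.37). Me1, the cytosolic malic enzyme, had 1513 and 402 reads and was 3.05-fold lower (2.73 to 3.42). Taldo1, the transaldolase of the same pathway as Tkt, had 2112 and 837 reads and was 2.05-fold lower (1.89 to 2.22). Tkt and Taldo1 belong to the part of the pathway that does not itself form NADPH. The 3 enzymes also serve fatty acid synthesis. The 17 listed genes took 0.716% of control reads and 0.367% of cold reads, 2.21-fold lower (2.14 to 2.29). Without Tkt, Me1 and Taldo1 the other 14 were 1.22-fold lower (1.15 to 1.30), so these 3 genes carried most of that difference. Of the other 14, 10 had at least 20 reads, with 2 intervals above 1 and 4 below. The other 3 of the lowest ratios were Gstm5, a glutathione S-transferase, at 2.16-fold lower (1.29 to 3.76), and Aox1, an aldehyde oxidase, and Gstt2, a transferase, whose intervals included 1.

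**Figure D4:**
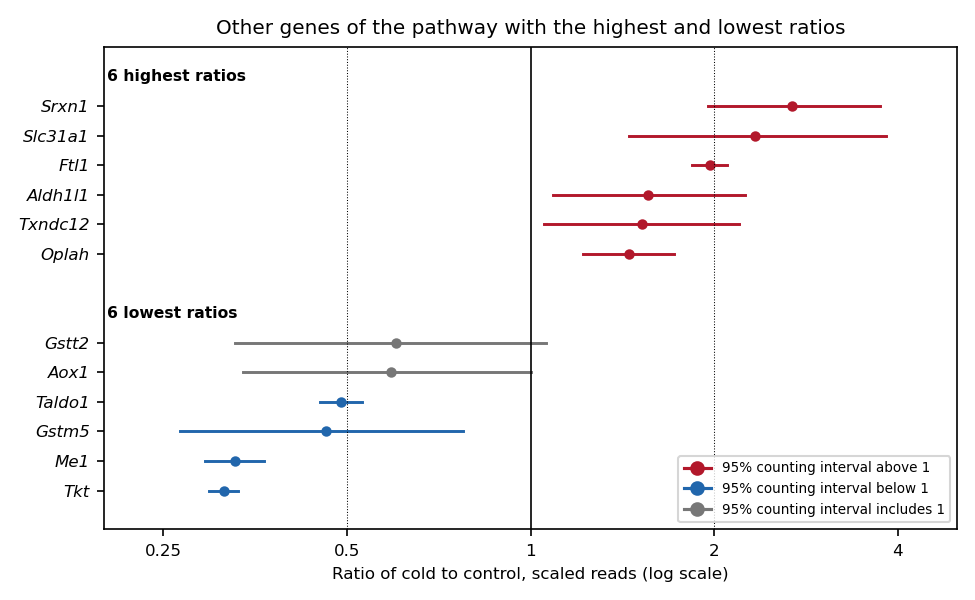
Ratio of cold to control on a log axis for the 6 highest and 6 lowest of the other pathway genes with at least 50 summed reads; points are ratios of scaled reads and lines are 95% counting intervals. Srxn1 lies at 2.68 and Tkt and Me1 at 0.314 and 0.328, and the intervals of Gstt2 and Aox1 reach 1.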

How the data were processed

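Each sample's deposited table gives raw counts of native RNA reads for every transcript, as the authors made them, with a lowest listed count of 1. The submitters' processing notes name minimap2 and GRCm38; the version, annotation release and treatment of reads matching several transcripts are not stated there. Input was 500 ng of poly(A)+ RNA (SQK-RNA002 kit), per the labels' protocols, whose extraction field names another fat depot than the tissue field. Transcripts were matched without version to GENCODE M21 (also GRCm38) and summed to genes; 75 and 79 transcripts (970 and 793 reads) had no gene and were kept only in the library size.

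TMM factors from edgeR 4.0.16 (0.940 and 1.06) scaled the library sizes. Ratios have 95% Clopper-Pearson intervals of the cold share of both counts, log2 ratios a prior of 0.5 reads, levels exact Poisson intervals, shares of a library exact binomial ones and differences of shares Newcombe intervals, all for counting error only. Calls needed at least 20 summed reads; at least 2-fold calls also a fold of 2. A single read is worth 0.627 RPM (control) or 0.773 RPM (cold). Alternatives were DESeq2 1.42.0 size factors, total counts with and without mitochondrially encoded genes, other filters, only the most abundant or coding transcripts, and copies merged. The ratio script was tested on simulated data. All members were described; of 105 related genes, those with the 6 highest and 6 lowest ratios at 50 or more reads were named, and the 8 members whose transcript shares moved most. Members, lists and rules were chosen with earlier results of these data known.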

Additional observations from a re-analysis of the deposited data

How the results depend on the processing

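No member called under the TMM scaling changed its direction under any alternative run. The median log2 ratio of members was -0.29 with DESeq2 size factors, -0.09 with total counts, -0.13 when mitochondrially encoded genes were left out of the total and -0.22 with at least 1 summed read. The count at least 2-fold lower was 2 with DESeq2 size factors (Mgst3 and Prdx4) and 0 with either total-count scaling, where the count at least 2-fold higher was 3 (Gss, Prdx6 and Txnrd1); these scalings shift all ratios together. That higher count was 2 with the most abundant transcript only (Glrx and Gss) and 2 with coding transcripts only (Gss and Txnrd1), which use fewer reads. Summed ratios with total counts, and then without mitochondrially encoded genes, were 1.18 and 1.14 for superoxide dismutases and catalase, 0.663 and 0.641 for glutathione peroxidases, 1.17 and 1.13 for peroxiredoxins, 1.28 and 1.24 for the thioredoxin and glutaredoxin system, 0.831 and 0.804 for the transferases and 1.11 and 1.07 for metallothioneins. From coding transcripts alone Prdx5 had a log2 ratio of 0.12 in place of -0.17. With at least 50 reads in each library, 27 members entered the transcript shares and Gpx8-202 had the largest difference, -6.09 points. Merging genes that share at least 50% of their 31-base words, an alternative chosen after seeing the data, changed no count. The split by transcript length and the sums without Gpx3 or without Tkt, Me1 and Taldo1 were also chosen after seeing the data. No paired analysis was possible because each group had 1 library, and no replicate could be left out. Genes with fewer than 20 summed reads were left out of the calls by the filter, and at this depth only large differences could be detected in them.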
